A study of Mus musculus with 10 samples.

Results

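The genes of glycolysis and lactate export were followed in the jejunum of mice with and without NDI1, a yeast (Saccharomyces cerevisiae) enzyme that oxidizes NADH in mitochondria as a single protein. The 31 members were taken by gene symbol, as rows of the deposited table of 45707 genes, and cover every step from hexokinase to the lactate transporters, the enzymes that set fructose-2,6-bisphosphate, and Hif1a. RNA was sequenced from 5 Vil-Cre mice and 5 Vil-Cre:NDI1 mice, 1 library per mouse. All 10 mice carried the Villin-Cre transgene, which is active in intestinal epithelial cells, and the Vil-Cre:NDI1 mice carried in addition a Cre-dependent NDI1 allele at ROSA26. All were male littermates of 8 to 12 weeks, fasted for 16 to 18 h and given water by gavage, with tissue taken 1 h later. The libraries came from whole jejunum, so fewer cells of a type and less RNA per cell cannot be told apart.

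Glycolysis splits glucose into pyruvate in the cytosol and reduces NAD+ to NADH on the way. The NADH is reoxidized either by shuttles that hand the electrons to the mitochondrial respiratory chain or by lactate dehydrogenase, which turns pyruvate into lactate for export through monocarboxylate transporters. Fasted small intestine takes up glucose from blood as well as from the lumen and releases part of its carbon as lactate, and a blocked complex I is known to raise glycolysis in many cell types. HIF-1, of which Hif1a encodes the regulated subunit, is known to activate many glycolytic genes through sites with the core ACGTG or GCGTG.

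Values are normalized counts, reads divided by the DESeq2 size factor of the library. Reads assigned to genes ranged from 10145705 to 11648074 in Vil-Cre and from 10313793 to 12371530 in Vil-Cre:NDI1 libraries, and NDI1 itself had 1002 to 2659 reads in the Vil-Cre:NDI1 libraries, against 0 in 4 Vil-Cre libraries and 1 in Vil-Cre 3. The comparison of genotypes by limma, on log2(value + 1), covered the 14301 genes that reached 10 in 5 or more mice, and log2 fold changes are Vil-Cre:NDI1 over Vil-Cre on that scale, which understates changes of low genes. All 31 members passed this filter. Markers of enterocytes were at 375753 to 610488 summed normalized counts in Vil-Cre and 561058 to 732785 in Vil-Cre:NDI1 libraries, and none of the 11 was at 0.

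Promoter windows of the members were read from RefSeq's GRCm38.p6 table, from 250 bases before to 50 bases after each annotated start. Of the 31 members 30 matched, with 48 windows, and Bsg did not. The core ACGTG or GCGTG on either strand was found in 34 of the 48 windows (70.8%), in 60.2% of the 13175 windows of genes tested and in 43.8% of all 32851 windows. The E-box CACGTG, which overlaps the core and counts as a core match on each strand, was in 6 member windows (12.5%), in 9.5% of the windows of genes tested and in 7.2% of all windows. The part before the start is printed for Hk1, the member whose genotypes did not overlap, and for Pgk1 and Ldha, whose enzymes make ATP and lactate, with core matches in capitals. The windows are chr10:62379909-62380158 (minus strand), chrX:106186850-106187099 (plus) and chr7:46845554-46845803 (plus), and none touches an exon of the GENCODE M21 annotation.
Hk1: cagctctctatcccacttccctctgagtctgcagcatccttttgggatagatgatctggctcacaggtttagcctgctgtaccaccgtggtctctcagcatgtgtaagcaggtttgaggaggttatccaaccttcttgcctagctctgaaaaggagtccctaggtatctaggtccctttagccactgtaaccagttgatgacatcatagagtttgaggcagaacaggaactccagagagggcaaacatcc
Pgk1: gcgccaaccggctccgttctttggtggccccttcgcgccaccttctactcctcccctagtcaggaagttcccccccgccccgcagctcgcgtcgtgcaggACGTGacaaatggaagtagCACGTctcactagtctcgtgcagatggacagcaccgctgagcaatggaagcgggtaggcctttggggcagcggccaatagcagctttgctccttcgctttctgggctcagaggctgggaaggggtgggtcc
Ldha: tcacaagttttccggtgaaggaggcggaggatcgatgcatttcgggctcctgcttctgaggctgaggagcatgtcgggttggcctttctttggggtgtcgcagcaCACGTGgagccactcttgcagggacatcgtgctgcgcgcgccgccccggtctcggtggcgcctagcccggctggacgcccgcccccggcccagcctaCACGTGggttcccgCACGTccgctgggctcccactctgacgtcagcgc
Which starts the jejunum uses was not tested. The printed 250 bases hold 0 matches for Hk1, 2 for Pgk1 and 5 for Ldha. Counted in whole windows, a second Hk1 start, inside the gene, has 5 matches and a further Ldha start has 2. These are matches of letters and were not tested as binding sites.

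No glycolytic gene passed the test between genotypes. With limma 0 of the 31 members passed an adjusted p of 0.05, where 1 gene of all tested did (0.00699%). That gene was the NDI1 transgene itself (adjusted p = 7.14e-09 from limma), so no mouse gene passed. At an unadjusted p under 0.05 there was 1 member, Hk1, and 4.24% of all genes. The DESeq2 Wald test on the recovered reads called 0 members and 0.168% of all genes. In 1 member, again Hk1, every Vil-Cre:NDI1 mouse lay below every Vil-Cre mouse, as in 0.294% of all genes, and in 0 members every Vil-Cre:NDI1 mouse lay above, as in 0.406% of all genes.

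More members had higher than lower mean log2 levels in Vil-Cre:NDI1 mice. The log2 fold change was above 0 for 24 members and below 0 for 7, with a median of 0.078 over the members and 0.0052 over all genes tested. After scaling of the libraries to equal totals, 18 members were above 0, the median of the members was 0.016 and that of all genes -0.057. All 11 enterocyte markers were also above 0 (median log2 fold change 0.22), and the part of the enterocyte share in the members' direction was not tested. The median size of the change was 0.12 for the members and 0.12 for all genes. The 95% confidence interval lay within 2-fold in both directions for 28 of the 31 members and for 79.6% of all genes, and within 1.5-fold for 19 members and 53.5% of all genes. The 3 members whose interval passed 2-fold were Hk1, Eno2 and Pfkfb1.

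**Figure D1:**
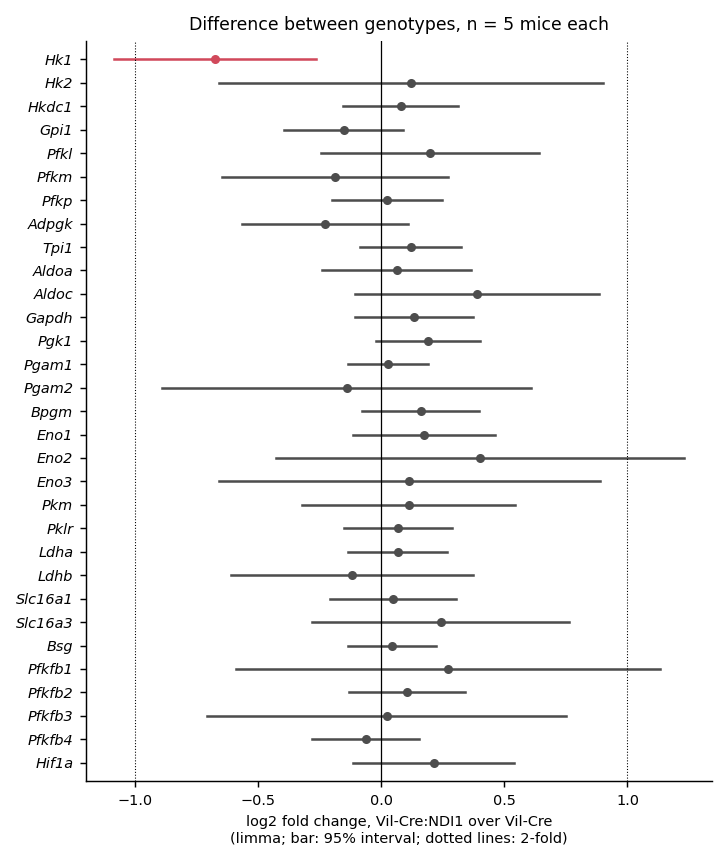
Log2 fold change of each member (Vil-Cre:NDI1 over Vil-Cre, limma, n = 5 mice each), with its 95% confidence interval as a bar and dotted lines at 2-fold. Hk1, in red, is the member whose genotypes did not overlap, at -0.68, and every other interval includes 0.

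Levels per kb of the longest principal transcript spanned a wide range in Vil-Cre mice. Ldha was highest at 7214 ± 440 normalized counts per kb (SD, n = 5), followed by Gapdh at 5727 ± 660.0, Pkm at 4812 ± 938 and Tpi1 at 4420 ± 458 (SD, n = 5 each). Gapdh and Pkm, and Pkm and Tpi1, differed by less than the SD of Pkm. Lowest were Pfkfb1 at 8.38 ± 3.02, Eno2 at 10.8 ± 3.79 and Pgam2 at 18.2 ± 3.65 (SD, n = 5 each). Ldha stood above 99.2% of the 13133 protein-coding genes that passed the filter, and Pfkfb1 above 9.89% of them. Counted per kb of all annotated exons, Ldha and Pfkfb1 kept the first and the last place, and Bsg moved from rank 5 to rank 2. The order therefore depends in part on which transcripts are in use, which a table per gene does not show.

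**Figure D2:**
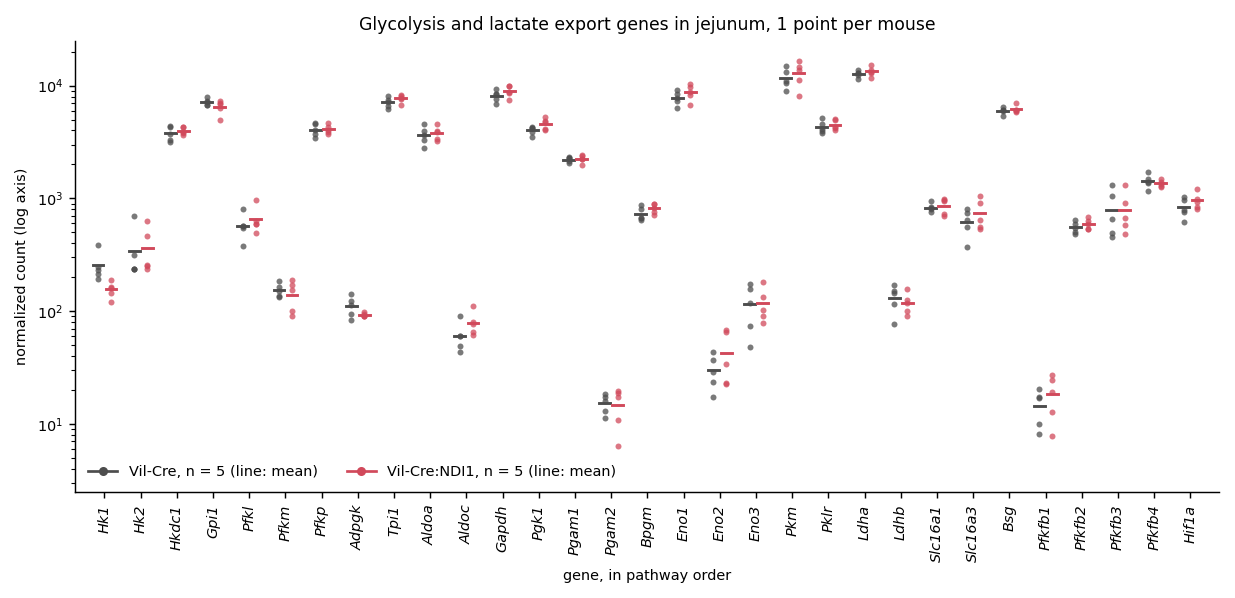
Normalized counts of the 31 members on a log axis, 1 point per mouse, with the mean of each genotype as a line (n = 5 each). The levels run from those of Pgam2 (6.38 to 19.6) to those of Ldha (11546 to 15217), and the points of both genotypes overlap in every gene but Hk1.

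Hexokinase phosphorylates glucose and so keeps it in the cell. The jejunum had mostly Hkdc1, a hexokinase-like gene that lies beside Hk1 on chromosome 10, with 89.4% ± 2.49 of the summed hexokinase level per kb in Vil-Cre and 91.4% ± 2.27 in Vil-Cre:NDI1 mice (SD, n = 5 each). Hkdc1 was at 3733, 4418, 3189.9, 3298 and 4323 normalized counts in Vil-Cre 1 to 5 and at 3679, 4263, 4329, 3853 and 3763 in Vil-Cre:NDI1 1 to 5. The genotypes overlapped, with a log2 fold change of 0.08 (95% interval -0.16 to 0.31).

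Hk1, the widely expressed hexokinase that binds mitochondria, had the lowest p of the members. It was at 232.7, 215.6, 193.4, 386.2 and 244.7 normalized counts in Vil-Cre 1 to 5 and at 120.6, 162.2, 161.7, 145.9 and 189.0 in Vil-Cre:NDI1 1 to 5. All Vil-Cre:NDI1 mice were below the lowest Vil-Cre mouse, by little for Vil-Cre:NDI1 5, and Vil-Cre 4 stood apart at the top. The means were 255 ± 76.1 and 156 ± 25.1 (SD, n = 5 each), a log2 fold change of -0.68 (standard error 0.19, 95% interval -1.09 to -0.27) with an adjusted p of 0.998 from limma over all genes. The exact permutation test over the 252 assignments of the mice, two-sided and for this gene alone, gave p = 0.00794, the smallest it can give. Genotypes that do not overlap always give this value, so it adds nothing to the separation of the mice. By its unadjusted p from limma (0.00387) Hk1 was at rank 39 of the 14301 genes. DESeq2 gave a log2 fold change of -0.71 with an adjusted p of 0.0991 and edgeR -0.72 with 0.997, and over all 18 alternatives the adjusted p ran from 0.0991 to 1.00. Leaving out Vil-Cre 4 moved the log2 fold change to -0.51. As a share of the summed hexokinase level per kb, Hk1 was at 4.09% to 9.28% in Vil-Cre and 2.79% to 4.22% in Vil-Cre:NDI1 mice, so that on this measure the genotypes overlapped.

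Markers of some other cells were set beside Hk1. All 6 goblet cell, all 6 fibroblast, all 4 tested tuft cell and all 4 tested B and plasma cell markers had log2 fold changes below 0, with medians of -0.22, -0.17, -0.45 and -0.63. Other lists went both ways, with 4 of 5 macrophage, 5 of 6 T cell, 5 of 6 Paneth cell, 6 of 8 smooth muscle and 4 of 5 tested hepatocyte markers below 0, with medians of -0.55, -0.12, -0.14, -0.06 and -1.03. All 11 enterocyte and all 4 tested erythrocyte markers were above 0, with medians of 0.22 and 1.01. Below 0 were 2 of 6 stem and cycling, 2 of 5 tested adipocyte and 2 of 4 endothelial markers. So were 4 of 6 enteroendocrine and 5 of 8 tested enteric neuron and glia markers. Of the 2 skeletal muscle markers tested 1 was below 0, and the 1 pancreatic acinar marker tested was above 0. Summed levels in Vil-Cre and Vil-Cre:NDI1 libraries were 84966 to 111913 and 66119 to 96852 for goblet cells, 2413 to 3312 and 2252 to 2894 for fibroblasts, 726 to 1546 and 420.1 to 1057 for tuft cells, and 1788 to 3574 and 1351 to 4545 for B and plasma cells. In Vil-Cre 4, where Hk1 was highest, the summed T cell markers were also highest (2802). The summed smooth muscle markers were lowest there (12636), as were those of Paneth cells, enteric neurons and glia, endothelial cells and adipocytes. The part of these cells in the Hk1 difference was not tested. The genes around Hk1 on chromosome 10 had log2 fold changes from -0.33 to 0.27 among its 13 tested neighbours.

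Hk2, the insulin- and hypoxia-responsive hexokinase, had the widest spread of the members between mice of one genotype. It was at 236.4, 316.3, 234.4, 234.6 and 697.3 normalized counts in Vil-Cre 1 to 5 and at 249.0, 254.2, 461.9, 633.6 and 235.9 in Vil-Cre:NDI1 1 to 5. Vil-Cre 5, Vil-Cre:NDI1 3 and Vil-Cre:NDI1 4 were high and the other mice lay close together in both genotypes. The log2 fold change was 0.12 (95% interval -0.66 to 0.90) and turned to -0.11 without Vil-Cre:NDI1 4. Adpgk, an ADP-dependent glucokinase, was low at 111 ± 22.9 and 93.3 ± 3.65 (SD, n = 5 each), a log2 fold change of -0.23 with overlapping genotypes.

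**Figure D3:**
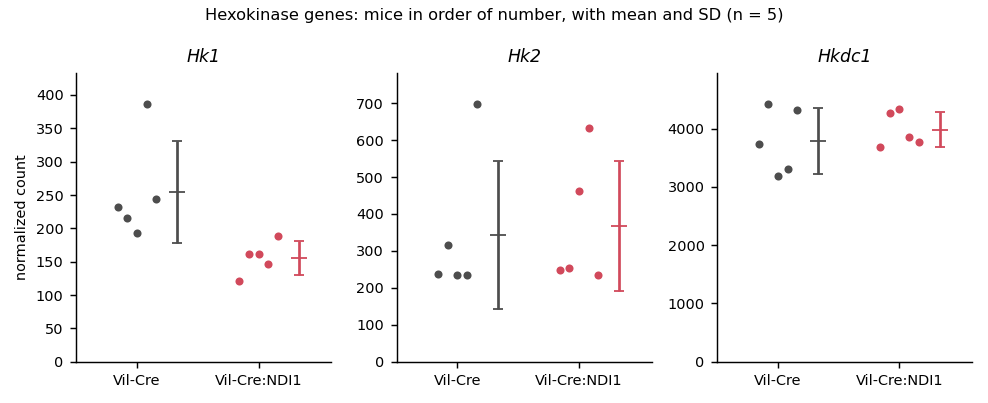
Normalized counts of Hk1, Hk2 and Hkdc1 by mouse, in order of mouse number within each genotype, with the mean and SD beside them (n = 5 each; axes start at 0). The 5 Vil-Cre:NDI1 mice lie between 121 and 189 for Hk1, under the lowest Vil-Cre mouse at 193, whereas Hk2 and Hkdc1 overlap.

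Gpi1 converts glucose-6-phosphate to fructose-6-phosphate and phosphofructokinase commits it to glycolysis. Gpi1 was at 7168 ± 493 normalized counts in Vil-Cre and 6492 ± 938 in Vil-Cre:NDI1 mice (SD, n = 5 each), a log2 fold change of -0.15 (95% interval -0.40 to 0.09), and its lowest mouse was Vil-Cre:NDI1 4 at 4920.0. The platelet-type Pfkp held 82.5% ± 3.00 and 81.7% ± 3.41 of the phosphofructokinase level per kb (SD, n = 5 each), with 4073 ± 517 and 4128 ± 382 normalized counts. The liver-type Pfkl was at 564, 550.5, 568, 381 and 799 in Vil-Cre 1 to 5 and at 498, 958, 597, 628 and 594 in Vil-Cre:NDI1 1 to 5. Vil-Cre:NDI1 2 and Vil-Cre 5 were high and Vil-Cre 4 low, the genotypes overlapped, and the log2 fold change was 0.20 (95% interval -0.25 to 0.64). The muscle-type Pfkm was at 134 to 186 and 90.1 to 188, with a log2 fold change of -0.19.

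Fructose-2,6-bisphosphate, the strongest activator of phosphofructokinase, is made and broken down by the Pfkfb enzymes. Pfkfb4 held the largest share of their summed level per kb, 57.7% ± 4.63 in Vil-Cre and 55.7% ± 3.97 in Vil-Cre:NDI1 mice (SD, n = 5 each), ahead of Pfkfb3, Pfkfb2 and Pfkfb1. Pfkfb3, the isoform with the highest kinase to phosphatase ratio, was at 498, 1060.4, 656, 1308 and 457 in Vil-Cre 1 to 5 and at 1315, 664, 904, 484 and 586 in Vil-Cre:NDI1 1 to 5. High and low mice were found in both genotypes, and the log2 fold change of 0.02 had a 95% interval from -0.71 to 0.75. Pfkfb2 and Pfkfb4 varied less, from 479 to 683 and from 1173 to 1703 over all mice, with log2 fold changes of 0.10 and -0.06. Pfkfb1, the liver and muscle isoform, was near the filter at 7.84 to 27.4 (log2 fold change 0.27).

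The aldolase and triose phosphate steps follow. Aldoa, the aldolase of most tissues, was at 3663 ± 678 and 3799.5 ± 530 (SD, n = 5 each), a log2 fold change of 0.06, and Aldoc, the brain-type aldolase, at 43.5 to 90.2 and 62 to 111, a log2 fold change of 0.39 (95% interval -0.11 to 0.89). Of the summed level per kb of both, Aldoa held 98.5% to 99.3% in Vil-Cre and 98.7% to 99.1% in Vil-Cre:NDI1 mice. Tpi1, which interconverts the triose phosphates, was at 6194 to 8025 and 6710.2 to 8179, a log2 fold change of 0.12. Gapdh, which reduces NAD+ to NADH, was at 6852 to 9300.1 and 7421 to 9851, a log2 fold change of 0.13.

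Pgk1, which makes the first ATP of the pathway's second part, came next to Hk1 by its p. It was at 4225, 3887, 4338, 3524 and 4199.6 normalized counts in Vil-Cre 1 to 5 and at 4145, 5306, 4724, 4011 and 4857 in Vil-Cre:NDI1 1 to 5. Of the Vil-Cre:NDI1 mice 3 were above every Vil-Cre mouse and the other two lay within the Vil-Cre range. The log2 fold change was 0.19 (standard error 0.10, 95% interval -0.02 to 0.40), with an unadjusted p of 0.0765 and an adjusted p of 0.998 from limma.

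Phosphoglycerate mutase was almost all Pgam1, the non-muscle form, at 98.5% ± 0.33 and 98.6% ± 0.59 of the level per kb of both genes (SD, n = 5 each), and Pgam1 had the smallest spread of the members, with 2048 to 2306 and 1989 to 2423 normalized counts. The muscle form Pgam2 was at 6.38 to 19.6 over all mice, 7 to 20 reads. Bpgm, which makes the 2,3-bisphosphoglycerate of red cells, was at 663.5, 676, 879, 799.8 and 640.0 in Vil-Cre 1 to 5 and at 717.5, 814.5, 753, 893 and 896 in Vil-Cre:NDI1 1 to 5. The genotypes overlapped, with a log2 fold change of 0.16 (95% interval -0.08 to 0.40). Of the erythrocyte markers, 4 of 4 tested had a log2 fold change above 0 (median 1.01). At an unadjusted p under 0.05 from limma were 3 of these 4, beside 4.24% of all genes. The summed levels of the erythrocyte markers were 207 to 492 and 318 to 1369. None of the 5 erythrocyte markers was at 0 in any library, and the part of red cells in the Bpgm values was not tested.

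Enolase was almost all Eno1, the form of most tissues, at 97.8% ± 1.18 and 97.9% ± 0.70 of the level per kb (SD, n = 5 each). Eno1 was at 8429, 7240.2, 9079.7, 7778 and 6313 normalized counts in Vil-Cre 1 to 5 and at 9788, 10283, 8253, 6794 and 8778 in Vil-Cre:NDI1 1 to 5. The genotypes overlapped, the log2 fold change was 0.17 (95% interval -0.12 to 0.46), and Vil-Cre:NDI1 1 and 2 were the highest. The neuronal Eno2 was at 17.2 to 43.7 and 22.5 to 67.6, and its interval of -0.43 to 1.23 did not leave out a change past 2-fold. Eno3, the muscle form, was at 158.9, 119.3, 74.1, 48.5 and 173.8 in Vil-Cre 1 to 5 and at 78.4, 133.0, 91.0, 101.8 and 183.1 in Vil-Cre:NDI1 1 to 5.

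Eno3 was set beside the smooth muscle markers across mice. Pearson's r with the mean log2 level of the 8 markers was 0.763 over the 10 mice (permutation p = 0.00901, adjusted over 10 relations 0.0901) and Spearman's rho was 0.576 (permutation p = 0.0877, adjusted 0.439). With each genotype's mean removed r was 0.780 (permutation p adjusted over the relations 0.0499). Here values were shuffled over all 10 mice without allowing for the removed means, so this p may be too small. Without Vil-Cre 4 and Vil-Cre:NDI1 1, the mice farthest from the median of the markers, r was 0.403 (permutation p = 0.325). Leaving out the farthest mice also narrows the range of the markers, so whether the relation rests on them cannot be told. The other 9 relations of isozymes with marker lists, among them Eno2 and Aldoc with enteric neurons and glia and Pklr and Hkdc1 with enterocytes, had r from -0.375 to 0.580 and adjusted permutation p from 0.306 to 0.901. Of the 5 skeletal muscle markers, Myh4 was at 0 in all libraries, Myh1 in 9 of 10 and Tnnt3 in 1, while Ckm was at 51.6 to 91.2 and 64.6 to 140.9 and Acta1 at 16.5 to 46.7 and 10.02 to 24.7, with no library at 0. Their summed levels were 72.8 to 127 and 84.2 to 177.

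Pyruvate kinase makes pyruvate and ATP from phosphoenolpyruvate. Pkm, whose splice forms a table per gene cannot separate, held 76.1% ± 2.57 and 76.5% ± 4.98 of the level per kb, and Pklr, the liver and red cell gene, the rest (SD, n = 5 each). Pkm was at 11094, 10633, 14781, 13102 and 8899 in Vil-Cre 1 to 5 and at 16675, 14628, 13624, 8080.3 and 11109 in Vil-Cre:NDI1 1 to 5. Both its highest and its lowest mouse were Vil-Cre:NDI1, and the log2 fold change was 0.11 (95% interval -0.32 to 0.54). Pklr was at 3820.0 to 5125 and 4074 to 5032, a log2 fold change of 0.07.

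Lactate dehydrogenase was almost all Ldha, the subunit of lactate-producing tissues, at 98.6% ± 0.32 and 98.8% ± 0.15 of the level per kb (SD, n = 5 each). Ldha was at 12536, 13646, 12939, 11546 and 13036 normalized counts in Vil-Cre 1 to 5 and at 11729, 13857, 13102, 12901 and 15217 in Vil-Cre:NDI1 1 to 5. Only Vil-Cre:NDI1 5 and Vil-Cre:NDI1 2 were above the highest Vil-Cre mouse, and the log2 fold change was 0.07 with a 95% interval of -0.14 to 0.27. Ldhb, the heart subunit, was at 76.8 to 169.6 and 91.2 to 158.5, a log2 fold change of -0.12 (95% interval -0.61 to 0.37).

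Lactate leaves the cell through the proton-coupled transporters MCT1 (Slc16a1) and MCT4 (Slc16a3), which need basigin (Bsg) to reach the membrane. Slc16a1 was at 829.7 ± 72.0 and 864.5 ± 140 (SD, n = 5 each), a log2 fold change of 0.05 (95% interval -0.21 to 0.30). Slc16a3 was at 643, 556, 735, 370.1 and 805 in Vil-Cre 1 to 5 and at 537, 910.2, 553, 643 and 1041 in Vil-Cre:NDI1 1 to 5. The mice Vil-Cre:NDI1 2 and 5 were the highest and Vil-Cre 4 the lowest, the genotypes overlapped, and the log2 fold change was 0.24 (95% interval -0.28 to 0.76). Slc16a3 held 33.5% to 50.7% of the level per kb of both transporters in Vil-Cre and 35.8% to 60.1% in Vil-Cre:NDI1 mice. Bsg varied little, at 5401 to 6519 and 5839 to 7012, with a log2 fold change of 0.04 (95% interval -0.14 to 0.22).

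**Figure D4:**
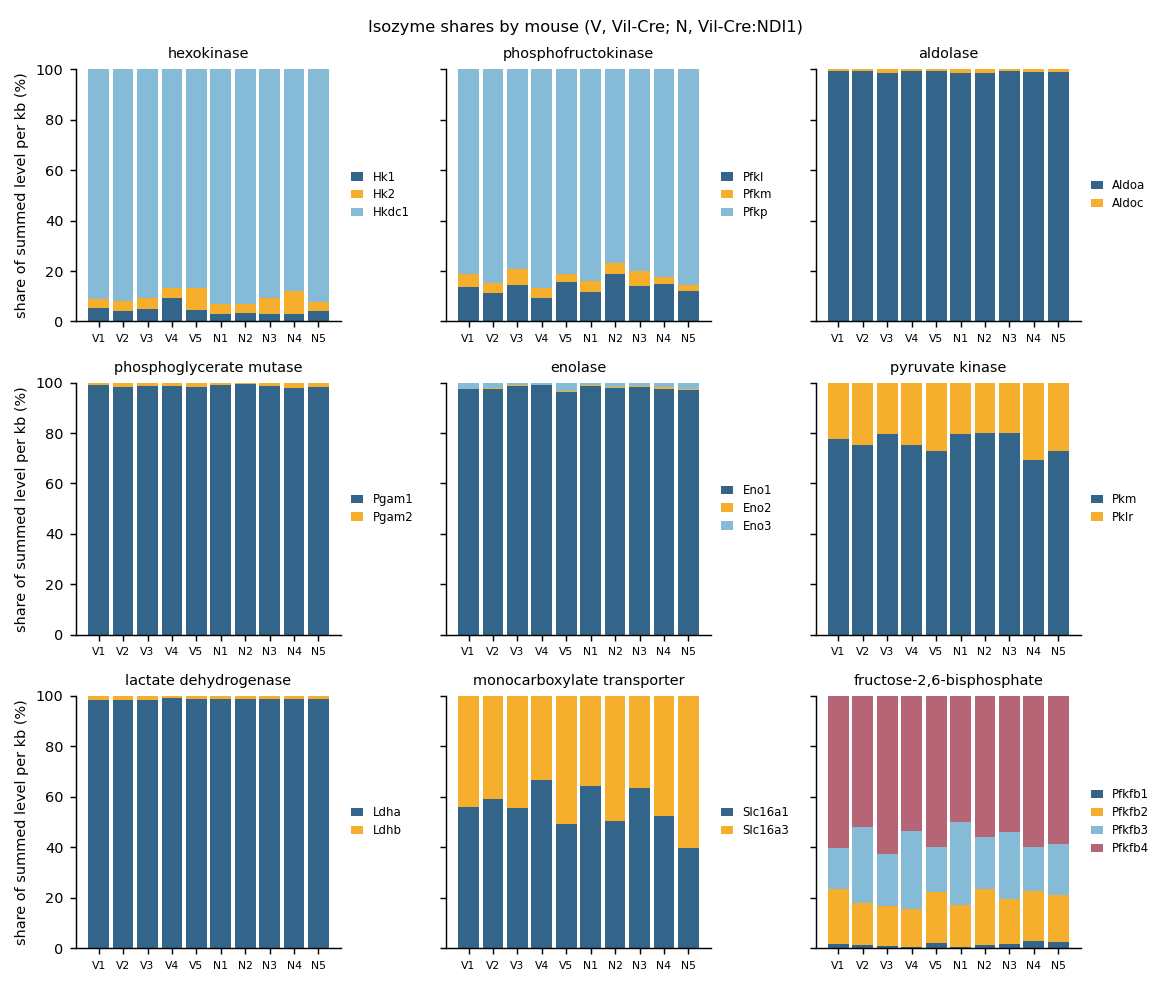
Share of each isozyme in the summed level per kb of its step (percent, bars stacked from 0 to 100), for Vil-Cre mice 1 to 5 (V) and Vil-Cre:NDI1 mice 1 to 5 (N). Hkdc1, Pfkp, Aldoa, Pgam1, Eno1, Pkm, Ldha and Pfkfb4 lead their steps in every mouse.

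Hif1a itself was at 788, 972, 761, 619 and 1021 normalized counts in Vil-Cre 1 to 5 and at 812, 844, 933, 1212 and 991 in Vil-Cre:NDI1 1 to 5. The genotypes overlapped, and the log2 fold change was 0.21 (95% interval -0.12 to 0.54). Of 12 HIF-1 targets outside glycolysis, 0 passed an adjusted p of 0.05 with limma, and 10 were above 0 and 2 below. At an unadjusted p under 0.05 were 2 of the 12, beside 4.24% of all genes. These 2, picked after their values were seen, were Vegfa, the vascular growth factor, at 1635 ± 143 and 1987 ± 247 (log2 fold change 0.28) and Bnip3l, a mitophagy receptor, at 662 ± 139 and 809.5 ± 48.8 (log2 fold change 0.31; SD, n = 5 for each mean). Both had an adjusted p of 0.998, and in both the genotypes overlapped. The highest and lowest of the list were Adm, a vasodilator peptide gene (0.36), and P4ha2, a collagen prolyl hydroxylase (-0.44). In the list of other HIF pathway genes, 0 of 6 passed and log2 fold changes ran from -0.0003 (Hif1an, the HIF asparagine hydroxylase) to 0.10 (Vhl, the ubiquitin ligase subunit that binds HIF).

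In the pathways that feed or drain glycolysis, limma called 0 genes in each list. Of the tested genes, log2 fold changes were above 0 for 3 of 5 of glucose entry, 5 of 7 of gluconeogenesis, 5 of 8 of the pentose phosphate pathway, 10 of 13 of pyruvate entry to mitochondria, 7 of 10 of the cytosolic NADH shuttles, 5 of 8 glycolysis regulators and 10 of 14 other lactate and monocarboxylate genes. Over all genes tested the median log2 fold change was 0.0052, and whether these counts differ from all genes was not tested. The extremes were 0.45 (Slc2a5, the fructose transporter) and -0.35 (Slc2a1, the basal glucose transporter) for glucose entry, and 0.25 (Pck1) and -0.26 (G6pc), both enzymes of glucose release, for gluconeogenesis. They were 0.18 (Rpe) and -0.09 (Tkt) for the pentose phosphate pathway and 0.16 (Dlat, a pyruvate dehydrogenase subunit) and -0.17 (Pdp1, a pyruvate dehydrogenase phosphatase) for pyruvate entry. For the shuttles that reoxidize cytosolic NADH they were 0.26 (Gpd1, at 5170.0 ± 1159 and 6091 ± 633, SD, n = 5 each) and -0.07 (Slc25a12), and for the regulators 0.09 (Tigar) and -0.10 (Ppargc1a). Of the other lactate genes Slc5a12, a sodium-coupled lactate transporter, was at 0.47 and Slc16a4 at -0.68, with 10.7 to 14.0 and 3.52 to 10.9 normalized counts.

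The spread between mice of one genotype was narrow for some members and wide for others. The within-genotype SD of log2(value + 1) had a median of 0.22 over the members and 0.29 over all genes tested. Pgam1 (0.09), Bsg (0.10) and Ldha (0.12) varied least, and Hk2 (0.66), Eno2 (0.65) and Eno3 (0.64) most. The library Vil-Cre 4 was the lowest of all 10 for 10 members (Pfkl, Aldoa, Aldoc, Pgk1, Eno2, Eno3, Ldha, Ldhb, Slc16a3 and Hif1a), as for 11.2% of all genes, and Vil-Cre 5 for 7 (Tpi1, Gapdh, Bpgm, Eno1, Bsg, Pfkfb3 and Pfkfb4), as for 15.4%. In all, the lowest library was a Vil-Cre library for 23 of the 31 members and 53.0% of all genes. Without Vil-Cre 4 the median log2 fold change of the members was 0.040.

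**Figure D5:**
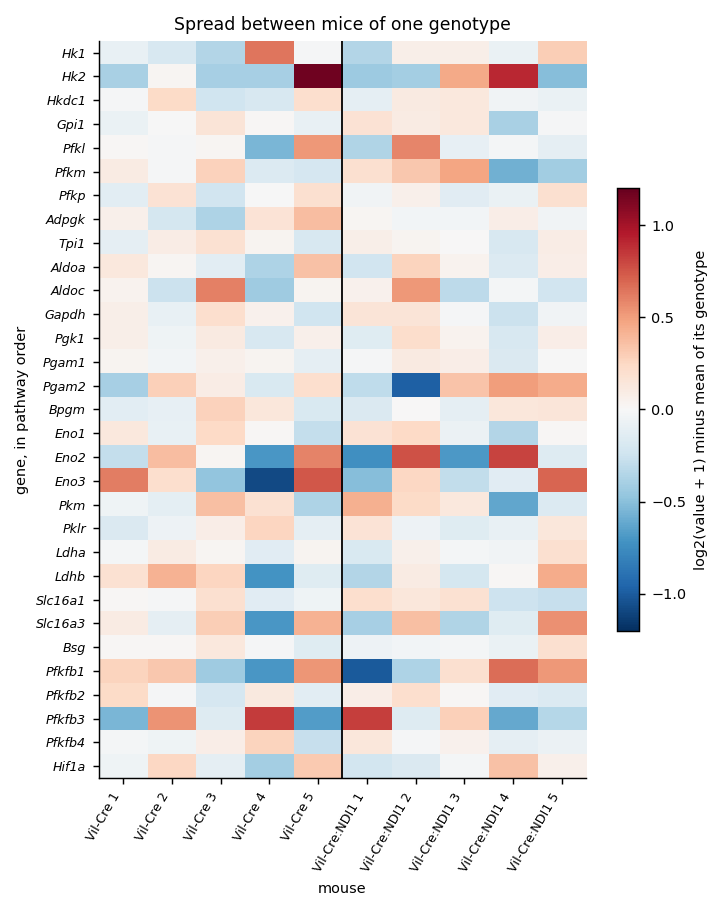
Deviation of log2(value + 1) of each member from the mean of its genotype, for each mouse (colour scale in log2 units, line between genotypes). Hk2 in Vil-Cre 5 reaches 1.17 and Hk2 in Vil-Cre:NDI1 4 0.91, while the rows of Pgam1, Bsg and Ldha stay pale.

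Some of these values rest on reads that other genes could have taken. Of the 100-base windows of the principal transcript, 78% of Gapdh, 67% of Pgk1, 59% of Eno1, 39.7% of Pgam1 and 23.9% of Pfkfb2 also occur in a transcript of another annotated gene, so these 5 are uncertain, while 20 members share no window. The genes that share windows with Gapdh, 84 in all and 78 of them in the table, held 1.45% to 1.84% as many normalized counts as Gapdh in every library. Of 13 copies and paralogs looked up, 4 (Ldhc, Pgk2, Ldha-ps and Pgam1-ps1) were at 0 in all libraries. Eno1b reached 29.2 normalized counts, Pgk1-rs7 47.1 and Pgam1-ps2 21.5, and the others at most 6.80 (Aldoart1, Aldoart2, Gapdh-ps14, Gapdhs, Ldha-ps2 and Ldhal6b). Exons of Hcn3 on the other strand cover 22.0% of the Pklr exons, and whether reads were counted by strand is not given in the sources used here. ROSA26, which carries the transgene, lies on chromosome 6 with 6 members, Eno2 nearest at 11.7 Mb and Bpgm farthest at 78.6 Mb.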

How the data were processed

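RNA sequencing of jejunum gave 1 library per mouse from 5 Vil-Cre and 5 Vil-Cre:NDI1 mice, grouped by their labels. Single-end reads of 100 cycles were trimmed (trimGalore!), aligned (STAR, GRCm38 plus the NDI1 sequence), quantified per gene (Salmon) and scaled by DESeq2 size factors by the authors, so the deposited values are a signal of normalized counts per gene. The annotation release and strand setting are not given in the sources used here. Non-zero values of each library were all whole multiples of a smallest step taken as 1 read, and the reads were recovered from that step. The multiples were whole within 0.001, or within a margin in proportion to the count for high counts. For Vil-Cre 3 and Vil-Cre 4 the step is too near to 1 to tell it from rounding. Every per-sample column was used.

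Genotypes were compared on log2(value + 1) with limma (version 3.58.1, R 4.3.3; eBayes, variance trend, values of at least 10 in at least 5 mice, Benjamini-Hochberg adjustment over all genes tested, threshold 0.05). Single genes also had a two-sided exact permutation test over samples, and correlations a permutation test. DESeq2 1.42.0 (local fit, size factors from the deposited values) and edgeR 4.0.16 (TMM, quasi-likelihood) served as alternatives on the recovered reads. Other alternatives were 2 pseudocounts (0.1 and 8), a minimum of 50, no filter, equal totals, a replicate block and leaving out each mouse. The scripts were tested on simulated data. Lengths and positions came from GENCODE M21 and promoter windows from RefSeq.

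The members and the lists of pathway and marker genes were chosen with earlier results of these data known. The genes named are the 31 members, the highest and lowest of each pathway list, copies and paralogs of members, and those said to be picked after their values were seen. A further gene, and the list and shares that hold it, are not reported here. Depth was 10145705 to 12371530 reads on genes, and the lowest member, Pgam2, had 7 to 20 reads per library.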

Additional observations from a re-analysis of the deposited data

Results flagged for a closer look

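A single mouse far from the other 4 of its genotype, by Dixon's criterion at its 95% critical value of 0.71, was found in 4 of the 62 groups of 5 values checked (31 members in 2 genotypes). Chance alone gives about 1 in 20 groups, here 3.1. For Hk1 the mouse was Vil-Cre 4, with 386 normalized counts where the rest of its genotype had 193 to 245, a gap of 0.734 of the range. For Hk2 it was Vil-Cre 5, with 697 where the rest had 234 to 316, a gap of 0.823 of the range. Pfkl stood out in Vil-Cre:NDI1 2, at 958 beside 498 to 628, a gap of 0.718 of the range. Bsg did so in Vil-Cre:NDI1 5, at 7012 beside 5839 to 6034, a gap of 0.833 of the range.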

How the results depend on the processing

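None of the 31 members passed the threshold in any of the 18 alternative fits, although only 28 could be tested with a minimum of 50. Hk1 came nearest, with a DESeq2 adjusted p of 0.0991, and stayed below 0 in every fit (-0.76 to -0.51), while the lowest adjusted p of the other 30 members was 0.745. The median log2 fold change of the members stayed above 0, from 0.016 with equal totals to 0.10 without Vil-Cre:NDI1 4. Over all genes limma called 1 gene, the NDI1 transgene, in the main fit. It called 2 with a minimum of 50 and 1 to 3 with 1 mouse left out (2 without Vil-Cre:NDI1 1, 3 without Vil-Cre:NDI1 5), and DESeq2 called 24. The cause of these differences was not tested.

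Of the members 10 changed sign in at least 1 fit, all with a log2 fold change of at most 0.14 in size. With equal totals, which lowered the median of all genes from 0.0052 to -0.057, the log2 fold change was -0.039 for Pfkp, -0.00094 for Aldoa, -0.034 for Pgam1, -0.015 for Slc16a1, -0.020 for Bsg and -0.041 for Pfkfb3. Pfkfb3 was also at -0.0096 with DESeq2 and -0.016 with edgeR. With 1 mouse left out, values ran from -0.11 to 0.41 for Hk2, -0.034 to 0.071 for Pfkp, -0.031 to 0.15 for Aldoa, -0.27 to 0.10 for Pgam2, -0.16 to 0.30 for Eno3, -0.0030 to 0.12 for Slc16a1, -0.0048 to 0.074 for Bsg, -0.18 to 0.23 for Pfkfb3 and -0.13 to 0.0014 for Pfkfb4. Of the correlations with marker lists, without the 2 mice farthest from the median r turned to -0.0069 for Pgam2 and 0.112 for Pkm with smooth muscle and to -0.193 for Bpgm with erythrocytes. With the same mice left out, r rose from 0.113 to 0.757 for Aldoc with enteric neurons and glia (adjusted permutation p = 0.296). For Slc16a1 with enterocytes r rose from 0.158 to 0.718 (adjusted permutation p = 0.323). Eno3 with smooth muscle passed the threshold only with genotype means removed, where the permutation did not allow for those means.

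Replicate numbers gave no pairing of the mice, since deviations of same-numbered mice correlated at -0.116, 0.0024, 0.136, -0.108 and -0.035. With a replicate block limma called 1 gene and 0 members, and the median of the members was 0.078.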
